A study of Mus musculus with 6 samples.

Results

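Genes of collagen maturation were compared between label-retaining chondrocytes (LRCs) and non-label-retaining chondrocytes (non-LRCs) of the mouse growth plate. They were chosen by name, as the rows *P4ha1*, *P4ha2*, *P4ha3*, *P4hb*, *Plod1*, *Plod2*, *Plod3*, *Serpinh1*, *Lox* and *Loxl2* of a table of raw read counts. These were 10 of 23159 genes in the table, and all 10 were among the 13728 genes that passed the filter on low counts. RNA was sequenced from 6 libraries of 3 experiments, each of which gave 1 LRC library and 1 non-LRC library, with cells from several littermates pooled. All mice were homozygous for 4 alleles, Col2a1-tTA (labelled as lying at *Peli2*), TRE-H2B-GFP at *Col1a1*, Col2a1-creER and R26R-tdTomato. They were 49 days old, had received doxycycline from P21 to P49 and were given tamoxifen at P46 and P47, so that both groups shared every allele and agent. LRCs were H2B-GFP(high) and tdTomato-positive (about 10000 cells a library), and non-LRCs were H2B-GFP(mid-low) and tdTomato-positive (about 50000 cells). *Col2a1* promoter sequences drove both tTA and creER, so that tdTomato marked the cells in which the creER transgene was active at the time of tamoxifen. H2B-GFP brightness set the groups, and none of the 10 genes was used for the sort. The level of *Col2a1* is not independent of the sort, because its promoter sequences drove tTA and creER. That of *Col1a1* may not be independent of it either, because the H2B-GFP cassette lies at that gene. The study saw a low level of H2B-EGFP without Col2a1-tTA in osteoblasts and osteocytes. Per the study's methods the sorted cells were also CD45-negative, so that leukocytes, which carry CD45 (*Ptprc*), were selected against.

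Collagen chains are modified in the endoplasmic reticulum before they are secreted. Prolyl 4-hydroxylase, a tetramer of catalytic alpha subunits and the beta subunit protein disulfide isomerase, hydroxylates proline residues and thereby stabilizes the triple helix, and lysyl hydroxylases modify lysine residues in the helix and in the telopeptides. Hsp47 binds the folded triple helix and accompanies it out of the endoplasmic reticulum. Outside the cell, lysyl oxidases convert lysine and hydroxylysine residues to aldehydes, from which the covalent crosslinks of the fibrils form. The hydroxylases need oxygen, iron and ascorbate, and several of their genes are known targets of hypoxia-inducible factors in the poorly vascularized growth plate.

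Upstream sequences are shown for *P4ha1* and *P4ha3*, whose fitted changes pointed in opposite directions, and for *P4hb*, whose product is the partner of both subunits. Each is the 250 bases before the annotated start, written 5′ to 3′ on the strand of the gene, from RefSeq on GRCm38.p6. Capitals mark ACGTG or GCGTG, the core letters of the hypoxia response element, on either strand. *P4ha1* is read from the plus strand at chr10:59323046-59323295, *P4ha3* from the plus strand at chr7:100285270-100285519 and *P4hb* from the minus strand at chr11:120573254-120573503.
P4ha1: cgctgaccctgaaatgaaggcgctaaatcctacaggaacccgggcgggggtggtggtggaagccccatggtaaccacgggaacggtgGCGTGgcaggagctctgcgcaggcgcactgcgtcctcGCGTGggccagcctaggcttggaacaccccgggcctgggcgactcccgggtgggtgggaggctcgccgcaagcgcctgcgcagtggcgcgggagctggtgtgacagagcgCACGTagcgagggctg
P4ha3: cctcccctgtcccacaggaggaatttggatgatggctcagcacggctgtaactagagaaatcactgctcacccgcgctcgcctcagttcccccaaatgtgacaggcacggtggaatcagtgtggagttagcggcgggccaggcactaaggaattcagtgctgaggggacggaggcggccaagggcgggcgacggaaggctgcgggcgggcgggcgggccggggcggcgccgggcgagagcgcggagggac
P4hb: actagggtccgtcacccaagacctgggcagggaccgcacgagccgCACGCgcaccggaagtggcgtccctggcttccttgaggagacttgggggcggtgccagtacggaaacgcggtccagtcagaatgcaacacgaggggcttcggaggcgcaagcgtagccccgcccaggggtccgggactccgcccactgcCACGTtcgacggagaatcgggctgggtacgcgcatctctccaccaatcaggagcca
In *P4ha1* the matches began 163, 126 and 16 bases before the start, in *P4hb* 205 and 56 bases before it, and *P4ha3* held none of these letters. Upstream sequences of 7 of the 10 genes were searched, and 6 of the 7 held a match. Those of *Plod2*, *Lox* and *Loxl2* were not searched, so whether they hold these letters is not known here. For *P4ha2* the matches began 107, 78 and 69 bases before the RefSeq start. That sequence, chr11:54100674-54100923, lies inside the gene as placed below. For *Plod3* the matches began 152, 104, 90 and 54 bases before the start, for *Serpinh1* 171 bases and for *Plod1* 20 bases. Of 32851 RefSeq upstream sequences of this length, 16.6% held ACGTG, 28.2% held GCGTG and 38.6% held either on at least 1 strand. A match of 5 letters is a description of the sequence and is not evidence of a bound site. The number of matches did not order the fitted log2 changes (LRC minus non-LRC). *Plod3*, with 4 matches, had -0.01, and *Serpinh1*, with 1, had -0.94. A link between matches and changes was not tested.

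Total counts per library lay between 18943789 and 129559872, and the smallest was the LRC library of experiment 2, in which 1731 of the genes tested had 0 counts, against 4 to 365 in the other 5. All 8 chondrocyte markers were detected in every library. They summed to 80450 to 223400 CPM (counts per 1000000 counts, TMM-normalized) in LRCs and 132600 to 229800 CPM in non-LRCs. *Col2a1* made up most of the sum, 189500 of 223400 CPM in the LRC library of experiment 1, and had no common direction. *Acan*, *Col9a1*, *Col11a1*, *Hapln1*, *Matn3* and *Comp* were lower in LRCs in every experiment, and *Sox9* was higher. Of the endothelial markers, *Cdh5*, *Kdr* and *Emcn* were at 0 throughout, and *Pecam1* was at most 0.681 CPM in any library. The 6 markers of prehypertrophic and hypertrophic chondrocytes summed to 606.9 to 1840 CPM in LRCs and 705.4 to 2457 CPM in non-LRCs a sum that was lower in the LRC library of each experiment. Of these markers 3, *Ihh* (at 0 in 2 LRC libraries), *Col10a1* and *Panx3*, were lower in LRCs in every experiment, and *Mmp13*, *Spp1* and *Ibsp* had no common direction. The 6 markers of superficial articular and synovial cells summed to 1480 to 3043 CPM in LRCs against 142.9 to 201.4 CPM in non-LRCs. Of these, 5 were higher in LRCs in every experiment, and *Tppp3* had no common direction. The study also detected *Prg4*, 1 of the 6, at a low level in the resting zone. It attributed essentially all tdTomato-positive cells of its digests to the growth plate. The 6 markers of fibroblasts and perichondrium summed to 2962 to 3142 CPM in LRCs against 1468 to 2371 CPM in non-LRCs, with *Postn* at 0 in all 3 LRC libraries. Osteoblast markers summed to 106.9 to 194.2 CPM in LRCs and 96.4 to 143.1 CPM in non-LRCs, with *Bglap*, *Bglap2* and *Sp7* lower and *Col1a1* and *Dmp1* higher in LRCs in every experiment, and *Col1a1* making up 154 of the 194.2 CPM in the LRC library of experiment 1. Markers of skeletal muscle and of leukocytes and erythroid cells summed to at most 13.96 and 10.68 CPM in any library. The part of these cell types in the results was not tested. In such pooled libraries fewer cells of a type and less RNA per cell cannot be told apart.

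No gene of the 10 passed the threshold of a Benjamini-Hochberg adjusted p of 0.05 in the paired edgeR quasi-likelihood test, which called 1.28% of all genes tested. At an unadjusted p below 0.05 there were 4, *Serpinh1*, *P4ha1* and *P4hb* lower in LRCs and *P4ha3* higher, against 18.4% of all genes tested. Under DESeq2 with the same pairing, *Serpinh1*, *P4ha1* and *P4hb* passed the adjusted threshold, 3 of 10 against 12.3% of the genes it tested, and limma-voom called the same 3 genes, against 9.91% of all genes it tested. In the edgeR fit 9 of the 10 genes had a log2 fold change below 0, as did 56% of all genes tested, where positive values are higher in LRCs, and the median was -0.19, beside -0.10 for all genes tested. Of the 10, 6 were lower in LRCs in all 3 experiments, where 26.1% of all genes tested were, and 1 was higher in all 3, where 20.4% were. The 3 LRC and 3 non-LRC levels did not overlap for *P4ha1*, *P4ha2*, *P4hb* and *Lox*, 4 of 10 genes against 18.7% of all genes tested.

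The summed level of the 10 genes in experiments 1, 2 and 3 was 8248, 6898 and 8501 CPM for LRCs and 11200, 9728 and 11490 CPM for non-LRCs. The LRC sum was thus 0.737, 0.709 and 0.740 of the non-LRC sum within the 3 experiments. *P4hb*, *Plod2* and *Serpinh1* made up most of it, with 2362, 2353 and 1676 of 8248 CPM in the LRC library of experiment 1. The sum therefore does not describe each gene: *Plod2*, *Plod3* and *Loxl2* had no common direction, and *P4ha3* was higher in LRCs in every experiment. Changes within each experiment are given as differences in log2 CPM and the fitted change as a log2 fold change with its standard error (SE).

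**Figure D1:**
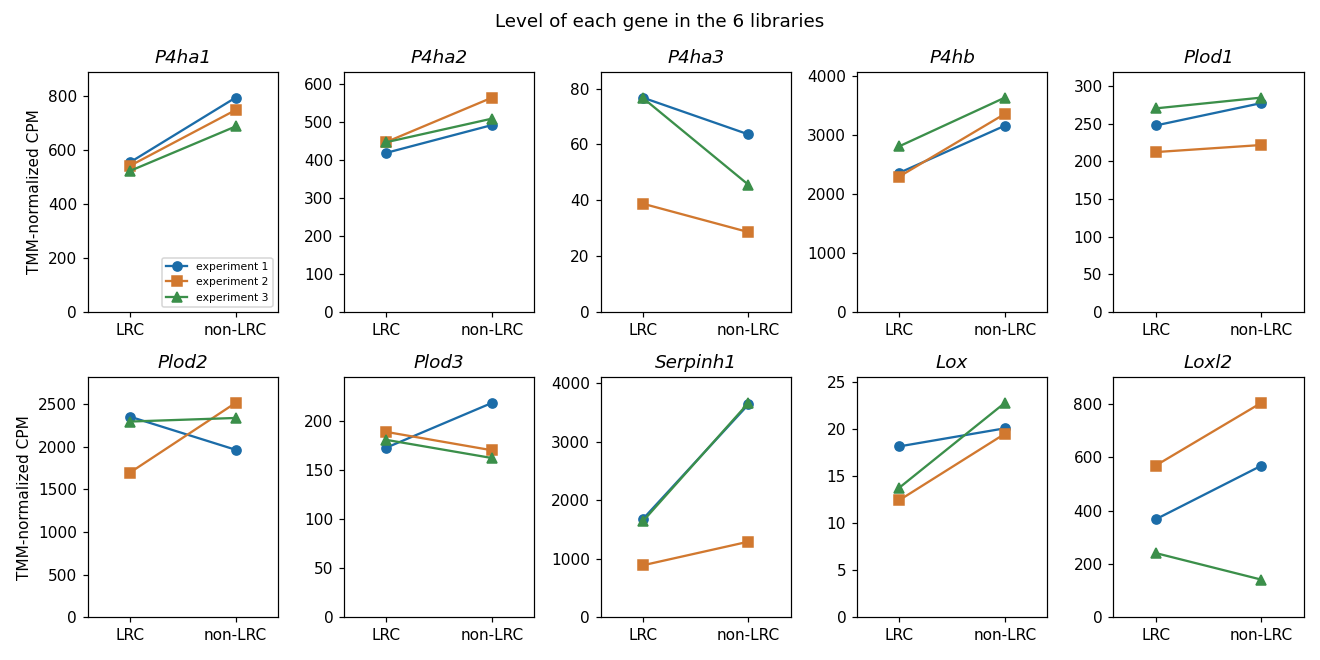
Level of each of the 10 genes as TMM-normalized CPM on linear axes from 0, with LRC libraries on the left and non-LRC libraries on the right of each panel and a line joining the 2 libraries of an experiment. The lines of *P4ha1*, *P4ha2*, *P4hb* and *Lox* rise from LRC to non-LRC with no overlap of the groups. Those of *P4ha3* slope the other way in all 3 experiments, and those of *Plod2*, *Plod3* and *Loxl2* have no common direction.

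*P4ha1* encodes the alpha subunit regarded as the main one in most cells and lies on chromosome 10 (59323296 to 59373304, plus strand, GRCm38). Its level was 555, 542.1 and 523.2 CPM in LRCs and 794.7, 748.8 and 688 CPM in non-LRCs, or 540.1 ± 16.0 and 743.8 ± 53.6 CPM (mean ± s.d., *n*=3 libraries each). Every LRC library was below every non-LRC library, and the difference of the means exceeded the spread in either group. The change was -0.52, -0.47 and -0.39 in experiments 1, 2 and 3, and the fitted change was -0.46 (SE 0.13, 95% interval -0.79 to -0.13, adjusted p = 0.154, edgeR). DESeq2 gave an adjusted p of 0.0145 and limma-voom one of 0.0466.

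*P4ha2* encodes the alpha subunit known as prominent in chondrocytes and lies on chromosome 11 (54100095 to 54131665, plus strand). Its level was 419.7, 448.3 and 447.7 CPM in LRCs and 492.9, 565.1 and 509.8 CPM in non-LRCs. The groups again did not overlap, although the change was smaller than that of *P4ha1* in each experiment, at -0.23, -0.33 and -0.19. The fitted change was -0.25 (SE 0.13, 95% interval -0.58 to 0.08, adjusted p = 0.380, edgeR), and no alternative called it.

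*P4ha3* encodes the third alpha subunit and lies on chromosome 7 (100285520 to 100319699, plus strand). It had 76.8, 38.8 and 76.7 CPM in LRCs and 63.6, 28.6 and 45.6 CPM in non-LRCs. Both libraries of experiment 2 were the lowest of their group, and the groups overlapped, but the LRC library was the higher one in each experiment. Among the 10 genes it was the single one with a fitted change above 0, at 0.49 (SE 0.17, 95% interval 0.06 to 0.91, unadjusted p = 0.0303, adjusted p = 0.217, edgeR). The changes within experiments 1, 2 and 3 were 0.27, 0.44 and 0.75, and the fitted change lay between 0.37 and 0.59 over the 11 alternatives, none of which called it.

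*P4hb*, on chromosome 11 (120560298 to 120573253, minus strand), encodes protein disulfide isomerase, which also forms disulfide bonds in other secreted proteins. Per kilobase it was the most abundant of the 10 genes in LRCs. Its level was 2362, 2299 and 2812 CPM there and 3162, 3362 and 3638 CPM in non-LRCs (2491 ± 280.1 and 3387 ± 238.9 CPM, mean ± s.d.). The highest LRC library stayed below the lowest non-LRC library. The change was -0.42, -0.55 and -0.37 in the 3 experiments, with a fitted value of -0.45 (SE 0.14, 95% interval -0.80 to -0.10, adjusted p = 0.181, edgeR). With DESeq2 the adjusted p of *P4hb* was 0.0156 and with limma-voom 0.0441.

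Shares within a gene family were taken after division by the length of the longest coding transcript, as CPM per kilobase. On this scale *P4ha1* took 38.6%, 38.5% and 36.0% of the 3 alpha subunits in LRCs and 44.5%, 41.4% and 41.0% in non-LRCs. *P4ha3* took 9.15%, 4.71% and 9.03% in LRCs and 6.10%, 2.71% and 4.65% in non-LRCs. Within every experiment the share of *P4ha1* was therefore lower in LRCs and that of *P4ha3* higher. The differences, LRC minus non-LRC, were -4.64 ± 1.51 percentage points for *P4ha1* and 3.14 ± 1.19 percentage points for *P4ha3* (mean ± s.d. of the 3 experiments). The exact sign-flip permutation test over the 3 experiments gave p = 0.25 for each (two-sided), the smallest p that 3 experiments allow. *P4ha2* held the largest share, with a mean of 54.7% in LRCs and 53.2% in non-LRCs. The order of *P4ha1* and *P4ha2* depended on the length used. With all annotated exon bases as the length, *P4ha1* held 59.1% in LRCs and 64.7% in non-LRCs and *P4ha2* 31.7% and 30.1%, while the differences between the groups kept their direction. The ratio of *P4hb* to the summed alpha subunits, per kilobase, was 2.32, 2.30 and 2.73 in LRCs and 2.50, 2.63 and 3.07 in non-LRCs, lower in LRCs in all 3 experiments (exact p = 0.25, again the smallest possible).

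**Figure D2:**
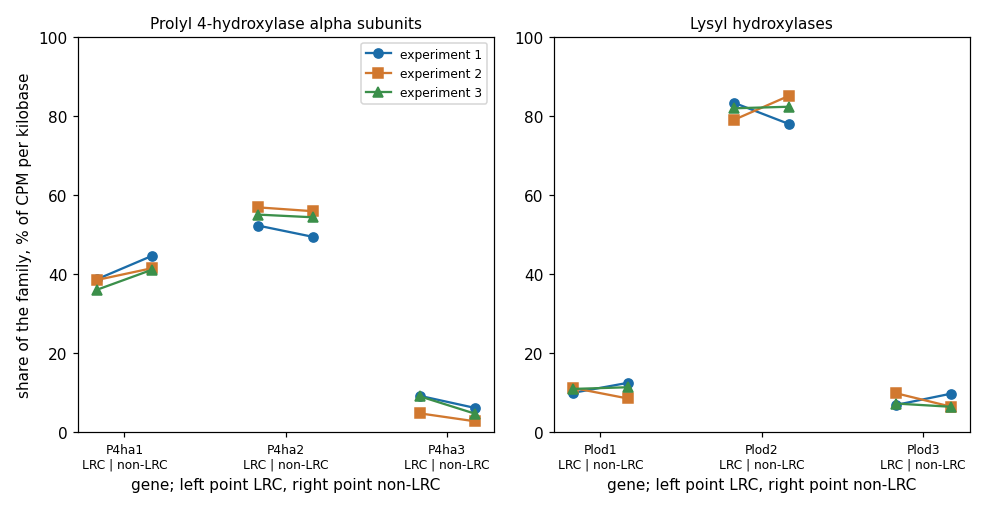
Share of each alpha subunit among the 3 prolyl 4-hydroxylase alpha subunits and of each lysyl hydroxylase among the 3 lysyl hydroxylases, in percent of summed CPM per kilobase of the longest coding transcript, with LRCs on the left and non-LRCs on the right of each gene and a line for each experiment. *P4ha1* has a lower share and *P4ha3* a higher share in LRCs in all 3 experiments, and *Plod2* holds between 77.9% and 85.1% of its family in every library with no common direction.

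*Plod1*, on chromosome 4 (147909753 to 147936767, minus strand), encodes lysyl hydroxylase 1, which acts on the helical part of the chain. Its level was 247.7, 212.4 and 270.4 CPM in LRCs and 277.4, 221.8 and 284.7 CPM in non-LRCs. The libraries ranked by experiment in both groups, with experiment 2 the lowest and experiment 3 the highest. The LRC library was lower in each experiment by a small amount, and the fitted change of -0.10 (SE 0.13, 95% interval -0.42 to 0.22, adjusted p = 0.731, edgeR) was smaller than its error.

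*Plod2*, on chromosome 9 (92542223 to 92608428, plus strand), encodes the lysyl hydroxylase that acts on the telopeptides. Its level was 2353, 1698 and 2296 CPM in LRCs and 1965, 2515 and 2338 CPM in non-LRCs. The smallest LRC library, that of experiment 2, was the lowest of the 6, and the groups overlapped. The change was 0.26 in experiment 1, -0.57 in experiment 2 and -0.03 in experiment 3, and the fitted change was -0.11 (SE 0.20, 95% interval -0.59 to 0.37, adjusted p = 0.806, edgeR). Without experiment 2 it was 0.12, so that no direction can be given. *Plod2* nevertheless held a mean of 81.4% of the lysyl hydroxylase CPM per kilobase in LRCs and 81.8% in non-LRCs (exact sign-flip permutation p = 0.75).

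*Plod3* encodes lysyl hydroxylase 3, which also glycosylates hydroxylysine, and lies on chromosome 5 (136987019 to 136996648, plus strand). It was measured at 172.9, 188.9 and 180.8 CPM in LRCs and 218.5, 170.2 and 162.3 CPM in non-LRCs. The non-LRC library of experiment 1 was the highest and the other 2 non-LRC libraries were the lowest. The fitted change was -0.01 (SE 0.16, 95% interval -0.41 to 0.38, adjusted p = 0.979, edgeR), and 0.15 without experiment 1. Of the exon bases of *Plod3*, 529 (11.7%) overlap exons of *Znhit1* on the opposite strand, and reads there cannot be assigned where strand was not used in counting.

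**Figure D3:**
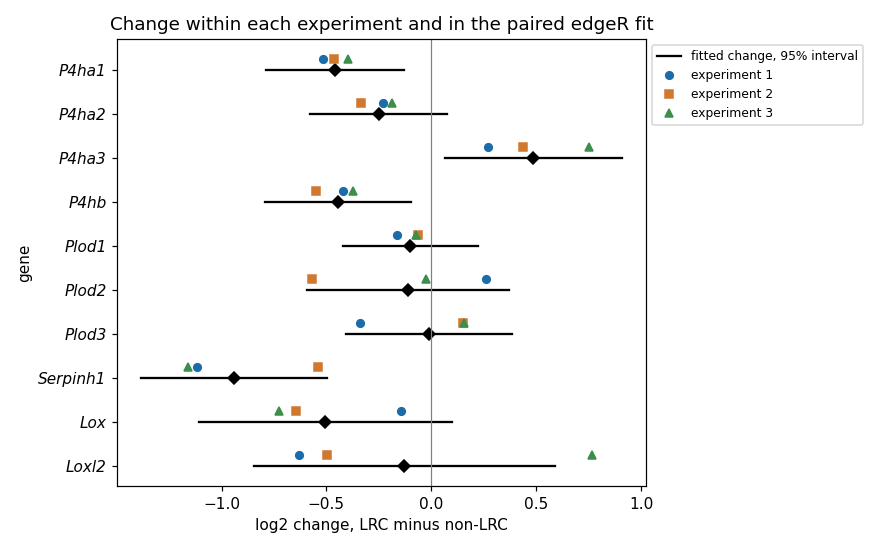
Change of each gene on the log2 scale, LRC minus non-LRC, with coloured points for experiments 1, 2 and 3 and a black diamond and line for the fitted change and its 95% interval in the paired edgeR test. The intervals of *P4ha1*, *P4hb* and *Serpinh1* lie below 0 and that of *P4ha3* above 0, and those of the other 6 genes include 0.

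*Serpinh1* encodes Hsp47 and lies on chromosome 7 (99345376 to 99353239, minus strand). Its fitted change was the largest in size among the 10 genes. Its level was 1676, 888.8 and 1639 CPM in LRCs and 3633, 1292 and 3660 CPM in non-LRCs, or 1401 ± 444.1 and 2862 ± 1359 CPM (mean ± s.d., *n*=3 libraries each). Experiments 1 and 3 gave nearly the same levels, whereas both libraries of experiment 2 were low, so that its non-LRC library lay below the LRC libraries of the other 2 experiments and the groups overlapped. Within experiments the change was -1.12, -0.54 and -1.16. The fitted level was 1.92-fold higher in non-LRCs (95% interval 1.41 to 2.61), a log2 fold change of -0.94 (SE 0.18, unadjusted p = 0.00204, adjusted p = 0.0735, edgeR), which did not pass the threshold. The adjusted p of *Serpinh1* was 4.11e-05 with DESeq2, 0.00229 with limma-voom, 0.0286 in edgeR with at least 10 counts required in every library (6.75% of all genes called) and 0.011 in edgeR without experiment 2 (5.37% called), where the change was -1.14. It reached 0.524 at most over the 11 alternatives.

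*Serpinh1* was also set against other transcripts of the same library, which needs no scaling between libraries. For every 100 CPM of *P4hb* there were 71.0, 38.7 and 58.3 CPM of *Serpinh1* in LRCs and 114.9, 38.4 and 100.6 CPM in non-LRCs. For every 100 CPM of *Plod2* there were 71.2, 52.4 and 71.4 CPM in LRCs and 185, 51.4 and 156.5 CPM in non-LRCs. In experiments 1 and 3 *Serpinh1* was thus lower in LRCs relative to both genes, and in experiment 2 the LRC to non-LRC ratio was 1.01 for *P4hb* and 1.02 for *Plod2*. Relative to 100 CPM of 18 collagen chain genes, which Hsp47 serves, the level was 0.700, 1.01 and 1.01 CPM in LRCs and 1.48, 0.953 and 2.31 CPM in non-LRCs. *Col2a1*, which is not independent of the sort, made up most of the collagen sum, 189500 of 239300 CPM in the LRC library of experiment 1. In experiment 2 the LRC to non-LRC ratio was 0.638 for *Col2a1* and 0.649 for the collagen sum. The exact sign-flip permutation test gave p = 0.5 for each of the 3 ratios, where the smallest possible p is 0.25.

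**Figure D4:**
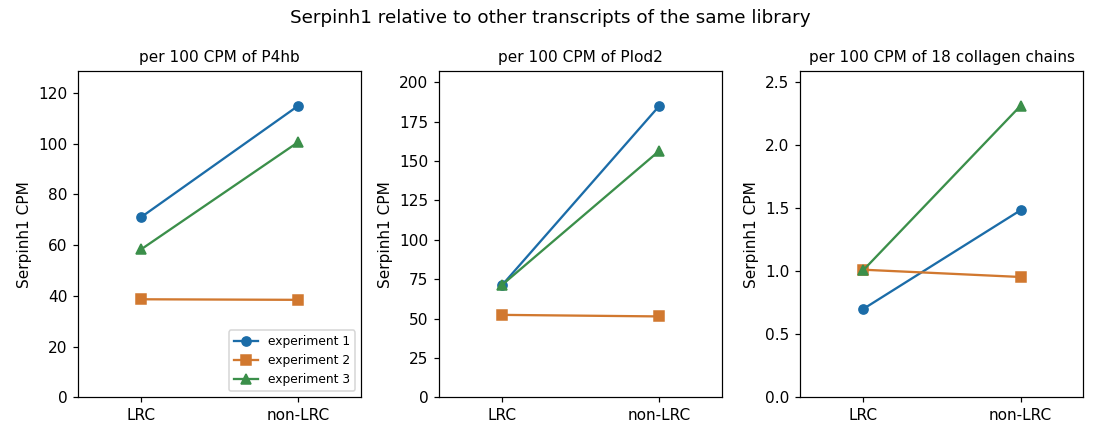
CPM of *Serpinh1* per 100 CPM of *P4hb*, of *Plod2* and of 18 collagen chain genes summed, on linear axes from 0, with a line for each experiment from LRC to non-LRC. Experiments 1 and 3 rise towards non-LRCs in all 3 panels, and experiment 2 is nearly level, with LRC to non-LRC ratios of 1.01, 1.02 and 1.06.

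*Lox*, which encodes lysyl oxidase, had the lowest level of the 10 genes per kilobase. Its raw counts were 2118, 260 and 591 for the LRC libraries and 2072, 744 and 1131 for the non-LRC libraries, or 18.1, 12.4 and 13.8 CPM against 20.1, 19.5 and 22.8 CPM. The groups did not overlap, but the LRC library of experiment 1 came close to the non-LRC libraries. The change was -0.15, -0.65 and -0.73 in the 3 experiments, and the fitted change was -0.51 (SE 0.25, 95% interval -1.11 to 0.10, adjusted p = 0.345, edgeR).

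*Loxl2*, on chromosome 14 (69609068 to 69695834, plus strand), encodes lysyl oxidase-like 2, a crosslinking enzyme of the same family. Its level was 367.6, 569.2 and 241.3 CPM in LRCs and 568.7, 804.4 and 141.7 CPM in non-LRCs. Experiment 2 was the highest and experiment 3 the lowest in both groups, and the levels varied more between experiments than between LRCs and non-LRCs. The change was -0.63, -0.50 and 0.77, and the fitted change was -0.13 (SE 0.29, 95% interval -0.85 to 0.59, adjusted p = 0.852, edgeR). It was 0.13 without experiment 1 and 0.07 without experiment 2. Exons of an antisense gene, *Gm27177*, share 301 bases (5.57%) with the exons of *Loxl2*. Per kilobase *Loxl2* exceeded *Lox* in every library, by a ratio of 18.1, 40.9 and 15.6 in LRCs and 25.3, 36.8 and 5.55 in non-LRCs.

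Ordered by CPM per kilobase in LRCs, the genes were *P4hb* (870.7 ± 97.9), *Serpinh1* (616.2 ± 195.3), *Plod2* (577.6 ± 99.1), *P4ha2* (193.8 ± 7.21), *P4ha1* (133.6 ± 3.95), *Plod1* (75.1 ± 9.01), *Loxl2* (73.9 ± 31.1), *Plod3* (55.1 ± 2.45), *P4ha3* (27.1 ± 9.27) and *Lox* (3.12 ± 0.63; mean ± s.d., *n*=3). Among neighbours in this order, the libraries of *Serpinh1* and *Plod2*, of *Plod1* and *Loxl2* and of *Loxl2* and *Plod3* overlapped, and those of the other pairs did not. In non-LRCs *Serpinh1* (1259 ± 597.8) and *P4hb* (1184 ± 83.5) led, with overlapping libraries, followed by *Plod2* (620.4 ± 76.8), and *Lox* (4.38 ± 0.37) was again the lowest. In the non-LRC library of experiment 2, however, *Serpinh1* (568.2) was below *Plod2* (686.7), so their libraries overlapped too. The middle of the order depended on the length used. With all annotated exon bases as the length, *P4hb*, *Serpinh1* and *Plod2* still led in LRCs and *P4ha3* and *Lox* were still last, but *P4ha2* (70.3 ± 2.62) ranked behind *P4ha1* (131.3 ± 3.88) and *Loxl2* (72.7 ± 30.6), and *Plod1* (36.0 ± 4.32) behind *Plod3* (40.0 ± 1.78).

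Other genes of collagen processing were taken from a list of 38, of which 37 were tested. *Adamts2*, which encodes a procollagen N-proteinase, was the single gene with an adjusted p below 0.05, at 96.1, 38.2 and 42.9 CPM in LRCs and 12.8, 6.31 and 7.95 CPM in non-LRCs (fitted log2 change 2.65, SE 0.21, adjusted p = 0.0151, edgeR). All LRC libraries were above all non-LRC libraries. At an unadjusted p below 0.05, 7 of the 37 were higher and 5 lower in LRCs. Of all 13728 genes tested, 1221 were higher and 1308 lower at that threshold (18.4% in either direction). The median log2 fold change was -0.16, beside -0.10 for all genes tested. The proteins that act beside the 10 genes were chosen after their values were seen. *Ppib*, which encodes the prolyl isomerase cyclophilin B, had a log2 fold change of -0.91 (adjusted p = 0.054, edgeR), and the prolyl 3-hydroxylase complex genes *Lepre1* and *Crtap* had -0.28 and -0.11. The lysyl oxidase family genes *Loxl1*, *Loxl3* and *Loxl4* had 1.82, -0.16 and -0.62, with adjusted p of 0.0808, 0.606 and 0.307 in edgeR.

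Among the substrates, 18 collagen chain genes were tested, with a median log2 fold change of 0.05, beside -0.10 for all genes tested. *Col1a1*, a fibrillar chain of bone and connective tissue, was the single one called, at 154, 53.0 and 113.1 CPM in LRCs and 33.8, 8.20 and 23.3 CPM in non-LRCs (fitted log2 change 2.38, SE 0.18, adjusted p = 0.0151, edgeR). The H2B-GFP cassette used for the sort lies at *Col1a1*, and its part in this change was not tested. At an unadjusted p below 0.05, 3 of the 18 chains were higher and 3 lower, where 18.4% of all genes tested passed in either direction. *Col2a1*, the main chain of cartilage, had a log2 fold change of -0.18 (adjusted p = 0.709, edgeR). It is named here after its values were seen. For every 100 CPM of collagen chains there were 3.45, 7.84 and 5.22 CPM of the 10 genes in LRCs and 4.57, 7.18 and 7.25 CPM in non-LRCs, lower in LRCs in experiments 1 and 3 (LRC to non-LRC ratios 0.755, 1.09 and 0.721). *Col2a1* made up most of the collagen chain CPM in every library, so this ratio is not independent of the sort.

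Of 24 hypoxia-inducible genes, all tested, *Pgk1*, which encodes a glycolytic kinase, passed the threshold. It had 217.5, 331.5 and 331 CPM in LRCs and 451.2, 699.2 and 562.9 CPM in non-LRCs (fitted log2 change -0.97, SE 0.14, adjusted p = 0.0484, edgeR). No LRC library reached the level of a non-LRC library. At an unadjusted p below 0.05, 3 of the 24 genes were higher and 5 lower in LRCs, where 18.4% of all genes tested passed in either direction. The median log2 fold change was -0.02, beside -0.10 for all genes tested.

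For the 3 genes with the smallest p, the genes of most similar level across the 6 libraries were found among 7814 genes with a mean of at least 10 CPM, by Pearson's r of log2 CPM. The highest values were for *Serpinh1* with *Txndc5* (0.996), a disulfide isomerase of the endoplasmic reticulum, *Leprel4* (0.992), which belongs to the prolyl 3-hydroxylase family, and *Arhgef1* (0.991). For *P4ha1* they were *Prkg2* (0.996), *Vdac1* (0.989) and *Smpdl3b* (0.987), and for *P4hb* *Panx3* (0.992) and *Slc38a4* (0.991). *Panx3* is among the prehypertrophic and hypertrophic markers given above. Within the 10 genes the closest pairs were *Plod1* and *Serpinh1* (0.901), *P4ha2* and *P4hb* (0.840) and *P4ha1* and *P4ha2* (0.816). These are descriptions over 6 libraries that share experiments and groups. A closest gene picked from 7814 over 6 libraries has a high r by selection. *Plod2*, which had no common direction, reached 0.984 with its closest gene. Shared regulation was not tested.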

How the data were processed

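RNA of sorted growth plate chondrocytes was sequenced as single-end reads in 6 libraries, 3 of LRCs and 3 of non-LRCs. Per the labels, the authors aligned reads to mm10 (GRCm38) with TopHat2 2.0.13 and Bowtie2 2.2.1. The deposited raw counts of reads per gene (23159 genes) came from HTSeq and are not normalized. The gene annotation and the strand setting are not given in the sources used here, so reads of overlapping genes may be misassigned. The other 2 of the 3 deposited tables hold size-factor normalized counts and rlog values from DESeq2 and were not used.

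The counts were fitted with edgeR 4.0.16 under R 4.3.3 (filterByExpr by group, which asks at least 3 libraries for the CPM that 10 counts make at the median library size, and 15 counts over all libraries, TMM, quasi-likelihood test, Benjamini-Hochberg adjustment over 13728 genes). CPM is TMM-normalized, with a prior count of 2 on the log2 scale. The experiment was a block, following the paired model of the study's methods. Deviations from the group means correlated between the libraries of an experiment with Pearson r of 0.197, 0.288 and 0.336. Between LRC and non-LRC libraries of different experiments r lay between -0.274 and 0.128. Deviations from a group mean cancel out within the group, which pulls these unmatched values down. Replicates are separate pools of littermates. Exact sign-flip permutation tests were two-sided. No library was a copy of another.

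The alternatives tried were DESeq2 1.42.0, its size factors in edgeR, no block, limma-voom (limma 3.58.1), other filters on low counts, thinning to the smallest total, a prior count of 2 for the fold change, each experiment left out, and other lengths for shares. The 10 genes and the lists were chosen with earlier results of these data known. Named genes were all 10, the genes with an adjusted p below 0.05 in each list, and the 3 genes most similar to each of the 3 of the 10 with the smallest p, of which 1 is not reported here. Further genes, said in the text to have been chosen after their values were seen, and the markers of cell types stand outside this rule. Genomic positions are from GENCODE vM21 and upstream sequences from RefSeq.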

Additional observations from a re-analysis of the deposited data

How the results depend on the processing

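The number of the 10 genes with an adjusted p below 0.05 was 0 in the paired edgeR fit, 3 with DESeq2, 3 with limma-voom and 1 with at least 10 counts in every library, and between 0 and 1 when an experiment was left out, *Serpinh1* being the gene called without experiment 2. Of all genes tested, these fits called 1.28%, 12.3%, 9.91% and 6.75%, and 5.37% without experiment 2. Without the replicate block none of the 10 was called, and 1 gene of all genes tested was. For the other collagen-processing genes (1 called) the count was 0 without the replicate block, 12 with DESeq2, 5 with at least 10 counts, 3 with no filter, 10 with limma-voom and between 0 and 5 with an experiment left out. For the collagen chains (1 called) the counts were 0, 5, 2, 2 and 6 in the same order, 2 with DESeq2 size factors in edgeR and between 1 and 6 with an experiment left out. For the hypoxia-inducible genes (1 called) they were 0, 6, 5, 2 and 6, and between 0 and 3 with an experiment left out. *Adamts2* and *Pgk1* were not called without experiment 1. The direction turned for *Plod2* (-0.30 to 0.12 with an experiment left out), *Plod3* (-0.092 to 0.15) and *Loxl2* (-0.54 to 0.13). The other 7 genes kept their direction under all 11 alternatives, and the median of the 10 genes lay between -0.32 and -0.16. The cause of these differences was not tested. Calls over all genes tested ranged from 1 without the block to 1692 with DESeq2, and each change rests on 3 pairs of libraries.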
